A study of Homo sapiens with 9 samples.

Results

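The mRNAs of the cytoplasmic ribosomal proteins (RPs) were followed through 54 antibody-barcode eCLIP (ABC) libraries. The members are the 84 protein-coding genes, of 20046 in the annotation, whose symbol names a protein of the large or small ribosomal subunit, and the peaks that lie on their strand in their exons or introns. There were 52 genes of the large and 32 of the small subunit, with 22264 of the 2478204 merged peaks, of which 13542 touched an exon.

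ABC uses antibodies tagged with DNA barcodes. Each barcode is joined to the RNA fragments bound by the RNA-binding protein (RBP) its antibody caught, so that 1 tube gives a library for every antibody in it. The 10plex design pooled antibodies against 10 RBPs in K562 cells, a human myeloid leukaemia line (3 replicates), and in a human embryonic kidney line (2 replicates). The labels name the kidney line HEK293T, the paper's methods name HEK293XT, and it is called HEK293 here. Singleplex libraries held RBFOX2 alone in the HEK293 line and SLBP, the protein that binds histone mRNA stem-loops, alone in K562 cells, with 2 replicates each. All cells were cross-linked with UV light and had no other treatment, and nothing says that replicates were separate cultures, so p-values measure the spread between these libraries, which may be technical.

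1 label field of the HEK293 10plex samples names K562, and both are titled as the same replicate. The 9 K562 marker genes, globins and erythroid factors among them, had peaks in all 3 K562 pools and none in either HEK293 pool, and 4 of the 5 HEK293 markers had peaks in each HEK293 pool and none in K562. Reads in merged peaks ran from 10462 to 1605070 per 10plex library in K562 (median 156972) and from 18409 to 2170612 in HEK293 (median 348246). PUM2 was the shallowest, with exonic peaks on 9 to 23 RP genes per K562 replicate, where the median library had 60.

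Ribosomal proteins are made in equal numbers from a set of short, very abundant mRNAs. Most of these mRNAs begin with a 5′ terminal oligopyrimidine (TOP) tract, a C at the cap followed by a run of C and U, through which growth signals control their translation. Their introns are known to house many small nucleolar RNAs, which are released from the intron after splicing and guide the chemical modification of other RNAs.

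The annotated start was a C followed by at least 4 pyrimidines for 59 of the 84 genes (70.2%), against 4.58% of all protein-coding genes. With a start anywhere within 5 bases allowed, it was 65 genes (77.4%) against 15.0%. The tract had a median length of 8 bases among members that begin with a C, and 16 of 19 other mRNAs known to carry a TOP tract, such as translation elongation factors, also passed. The first 20 bases of 4 of the mRNAs that carried many reads below are given as DNA in GRCh38, with the tract in capitals. They lie in the 5′ UTR at chr19:48619159-48619178 on the minus strand (RPL18), chr11:809967-809986 on the plus strand (RPLP2), chr17:74203678-74203697 on the plus strand (RPL38) and chr19:41860255-41860274 on the plus strand (RPS19).
RPL18: CTCTTTCCggacctggccga
RPLP2: CCTTTTCCTCCCTgtcgcca
RPL38: CTTTTTCgtccttttccccg
RPS19: CCCTTTCCCCTggctggcag

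The RP mRNAs were short, with a median of 42 nt of 5′ UTR, 457.5 nt of CDS and 166 nt of 3′ UTR, against 131, 1272 and 1018 nt over all genes. 82 of the 84 genes had an exonic peak in at least 1 library, and the median gene had one in 44.5 libraries. RPL10L and RPL3L, copies of RPL10 and RPL3 known to be used mainly in testis and in muscle, had none. RPL21, RPL7, RPL7A and RPSA had exonic peaks in 1 to 9 libraries only. RPL21 has 133 annotated pseudogene copies and RPL7A has 80, where the median member has 12, and the authors kept uniquely aligned reads only. The part this played in their few peaks was not tested. RPL21, RPL7 and RPSA were nevertheless among the genes called for PRPF8 in every replicate of both lines, at the splice sites described below.

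The share of a library's peak reads that lay on RP exons was highest for LIN28B, a protein known for blocking the maturation of let-7 microRNAs and for binding mRNAs. It was 4.63%, 4.29% and 4.84% in the 3 K562 replicates, a mean of 4.59% ± 0.278 (SD, n = 3), and the highest of the 27 libraries of the other 9 RBPs had 2.42%. In HEK293 the LIN28B share was 4.89% and 5.08%, a mean of 4.98% ± 0.136 (SD, n = 2), and the highest other library had 2.61%. The LIN28B libraries thus stood above every other library of their pool in both lines, with no overlap. In K562 the difference from the mean of the other 9 RBPs was 3.36 percentage points, with an exact permutation p = 0.001 (two-sided, RBP names permuted within replicates), the smallest this design allows, and an adjusted p = 0.01 over the 10 RBPs. In HEK293 the difference was 3.32 points with an exact permutation p = 0.01, again the smallest possible with 2 replicates, and an adjusted p = 0.1.

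**Figure D1:**
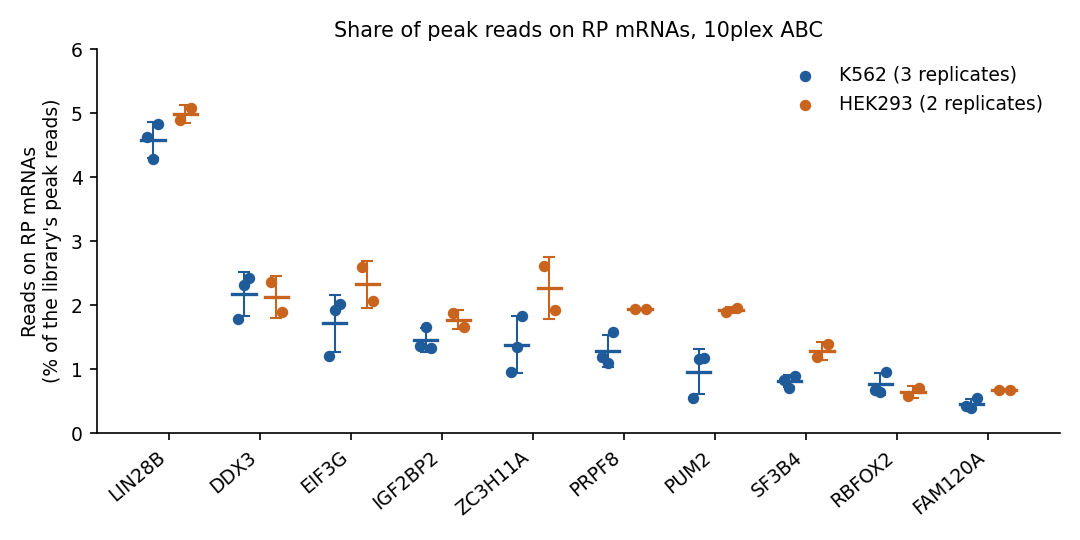
Share of peak reads on RP exons (y axis, % of all peak reads of the library) for the 10 RBPs of 10plex ABC (x axis), with a point per replicate and bars for the mean and SD. LIN28B sits between 4.29% and 5.08% in both lines, and no library of another RBP is above 2.61%.

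The helicase DDX3, which acts in translation initiation, followed with 1.79%, 2.32% and 2.42% in K562, and EIF3G, a subunit of the initiation factor eIF3, with 1.21%, 1.93% and 2.02%. FAM120A, an RNA-binding protein placed mostly on 3′ UTRs, was lowest with 0.427%, 0.401% and 0.549% (exact permutation p = 0.058, adjusted p = 0.29). In K562 the values of DDX3 and EIF3G overlapped. Those of FAM120A lay below every K562 library of the other RBPs, the nearest being a PUM2 replicate at 0.554%. The order differed in HEK293, with means of 2.33% for EIF3G, 2.27% for ZC3H11A and 2.13% for DDX3. The lowest mean there was that of RBFOX2 (0.641%), beside 0.676% for FAM120A.

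The shares of the same RBPs were lower in K562 than in HEK293 without overlap for 8 of the 10, all but DDX3 and RBFOX2. For PUM2, a repressor that binds 3′ UTRs, the means were 0.960% in K562 and 1.92% in HEK293 (exact permutation p = 0.1, the smallest that 3 against 2 libraries allow, adjusted p = 0.25). SF3B4, a component of the U2 snRNP, had 0.812% and 1.29% with the same p, but read numbers recovered for SF3B4 and RBFOX2 in HEK293 can be off by a factor of 0.933 to 1.41. Cell line, pool and depth cannot be told apart here, nor can binding and the amount of each mRNA in the cell.

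A stricter measure takes only peaks enriched over the complement control (CC), which pools the reads of the other 9 RBPs from the same tube, with P below 0.001 and a fold above 8. On this measure LIN28B was again first: 1.66%, 1.44% and 1.45% of its enriched peaks were on RP exons in K562 (59, 80 and 62 peaks), and no other library exceeded 1.08%. The mean was 1.51% ± 0.123 (SD, n = 3), 1.19 points above the other RBPs (exact permutation p = 0.001, adjusted p = 0.01). In HEK293 it was 1.48% and 2.1% (77 and 67 peaks), with no other library above 0.673%. Among all LIN28B merged peaks, enriched or not, those on RP exons were 1.78%, 1.43% and 1.82% in K562 and 1.47% and 1.40% in HEK293, so the share among enriched peaks was the higher one in K562 replicate 2 and both HEK293 replicates and the lower one in the other K562 replicates. ZC3H11A, an mRNA export factor, had no enriched peak on RP exons in any K562 replicate, and RBFOX2, a splicing regulator, had 1 in replicate 3 only.

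Of the 57 RP genes with a LIN28B exonic peak in every K562 replicate, 23 had an enriched one in every replicate, a share close to the 41.0% of all protein-coding genes called in the same way. With any fold above 1 in place of 8 it was 38 of 57 (66.7%) against 49.0%. In HEK293 it was 26 of 67, against 31.9% of all genes. PRPF8, the core protein of the U5 snRNP, had 23 of 79 in K562 against a background of 34.6%, and 26 of 81 in HEK293 against 35.2%. With P below 1e-05 and a fold above 16 it had 4 of 79 in K562 against 2.59% of all genes. The other RBPs had few: SF3B4 5 of 42 in K562 (13.3% of all genes), FAM120A 4 of 55 (24.7%), DDX3 1 of 53 (15.8%) and IGF2BP2, an mRNA-stabilising protein, 1 of 60 (10.9%).

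No RP gene was called in every K562 replicate for EIF3G (29 genes tested, 22.8% of all genes called), PUM2 (6 tested, 17.8%), RBFOX2 (49 tested, 1.18%) or ZC3H11A (39 tested, 6.59%). In HEK293 the counts were 5 of 71 for FAM120A (30.9%), 2 of 70 for DDX3 (14.2%), 1 of 57 for SF3B4 (6.31%), and none for EIF3G of 56 (11.5%), IGF2BP2 of 73 (4.06%), PUM2 of 27 (5.43%), RBFOX2 of 69 (0.957%) and ZC3H11A of 63 (5.10%). The share of RP genes called in a library was below that of all genes in 47 of the 50 10plex libraries, the exceptions being both HEK293 LIN28B libraries and SF3B4 in K562 replicate 1.

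**Figure D2:**
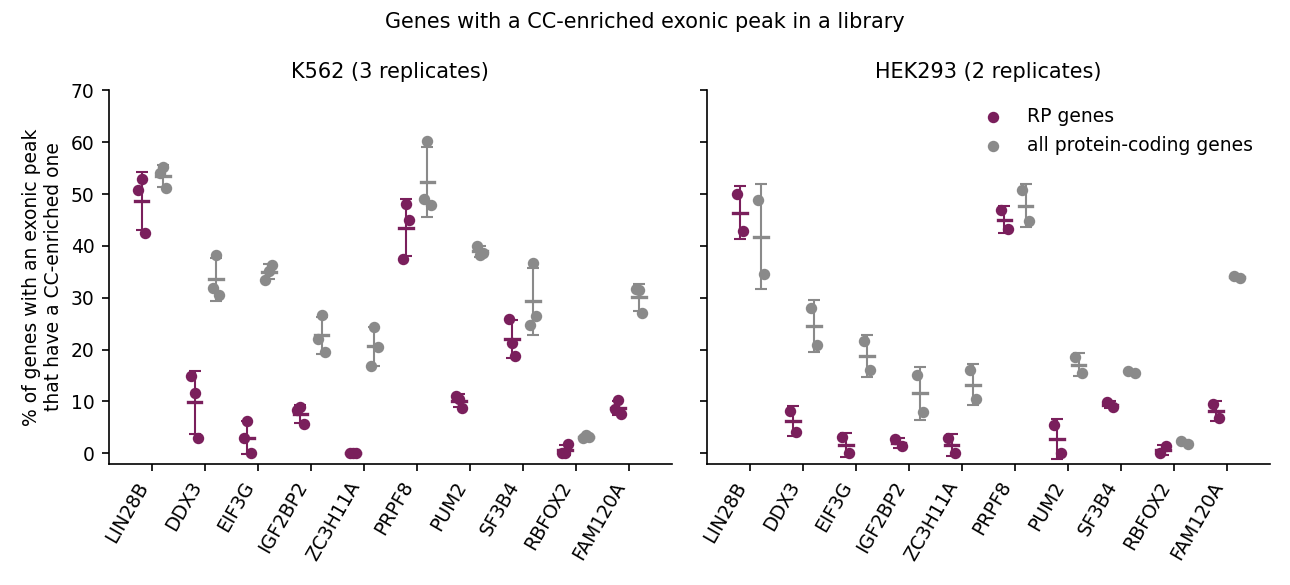
Percent of genes with an exonic peak that had a CC-enriched one (y axis), for RP genes and all protein-coding genes, with a point per library and bars for the mean and SD, by RBP (x axis) in K562 and HEK293. RP genes lie below all genes in 47 of the 50 libraries, and for LIN28B in K562 they are at 48.7% ± 5.57 beside 53.4% ± 2.1 (SD, n = 3).

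The LIN28B genes in K562 included RPL10, RPL18, RPL27A, RPL30, RPL35, RPL37, RPL39L, RPL5, RPL8, RPLP0, RPS12, RPS13, RPS14, RPS18, RPS19, RPS21, RPS27A, RPS29, RPS4X, RPS6 and RPS9. The whole list held 13 of 23 tested genes of the small subunit (56.5%) and 10 of 34 of the large (29.4%), and in HEK293 13 of 26 and 13 of 41. 21 of the 23 started with the TOP letters, as did 59 of all 84 members. Only 57 of the 84 were tested, and the share with TOP letters among those was not counted. No preference is read from these counts. The lists of the lines shared 17 genes, 73.9% of the K562 list and 65.4% of the HEK293 list. By the same rule LIN28B was called on 6 of 18 other TOP mRNAs and 5 of 17 mRNAs of mitochondrial ribosomal proteins in K562, so both lists lay below the background of 41.0%. In HEK293 it was 7 of 18 (38.9%) and 6 of 37 (16.2%), on either side of the background of 31.9%.

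5 LIN28B sites are shown because they had the highest mean fold over the CC among those called in every K562 replicate. Each is the 30 nt around the centre of the strongest peak, 5′ to 3′ on the strand of the mRNA in GRCh38. RPL18 is CDS across an exon junction, chr19:48617316-48617322 joined to chr19:48616802-48616824 on the minus strand. RPL39L is 5′ UTR at chr3:187139279-187139308 on the minus strand. RPS12 is CDS at chr6:132816991-132817020, RPS19 is CDS at chr19:41869171-41869200, and RPS21 is CDS across a junction, chr20:62387901-62387914 joined to chr20:62388309-62388324, all 3 on the plus strand. Capitals mark GGAG, a motif that LIN28 proteins are known to bind.
RPL18: ccggatgatccggaagatgaagcttcctgg
RPL39L: gagGGAGctgggcccgccttttccgcccgc
RPS12: taggcctttgtaaaattgacagagagggga
RPS19: caagccctGGAGgggctgaaaatggtggaa
RPS21: ccattcgtaggatgggtgagtcagatgatt

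GGAG was in 2 of these 5 windows. Over all LIN28B peaks enriched on RP exons, searched on the mRNA strand, it was in 12 of 59 (20.3%), 14 of 80 (17.5%) and 8 of 62 (12.9%) in K562, and in 13 of 77 (16.9%) and 10 of 67 (14.9%) in HEK293. The RP peaks that were not enriched held it in 15.6% to 21.5%, and 15.1% of all 30-nt windows of RP mRNAs do. Enriched LIN28B peaks on other mRNAs held it in 32.4% to 35.4% of cases, and those not enriched in 29.6% to 32.7%. Of all windows of those mRNAs, 16.3% do. The RP peaks thus lay near the level of their own mRNAs, and below the other mRNAs in every replicate of both lines. Neighbouring peaks share bases, so these shares were not tested.

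RPL18, a protein of the large subunit, carried more LIN28B reads than any other RP mRNA. It took 1.69%, 0.937% and 1.11% of all LIN28B peak reads in K562 and 0.938% and 1.52% in HEK293, while the highest library of another RBP had 0.220% (PUM2, K562). These shares add separate runs of touching peaks at a site that spans an exon junction. In HEK293 replicate 1 their highest peaks had 895 and 829 reads. Reads spliced across the junction may count in both runs and raise the share, which was not tested. The log2 fold over the CC at its strongest site was 7.16, 7.10 and 7.28 in K562 (869, 726 and 716 reads) and 7.73 and 8.14 in HEK293. The centres of the LIN28B peaks on RPL18 lay 182 to 252 nt after the start codon in K562 and 181 to 239 nt in HEK293. No peak of the other 9 RBPs on this mRNA had a log2 fold above 3.48 in K562 (161 peaks) or 2.84 in HEK293 (147 peaks). The CC of those RBPs includes the LIN28B reads of the tube, which lowers their folds at the LIN28B site. Their low folds there are thus no separate evidence. Per length of mRNA, RPL18 held 1.94% of LIN28B reads per kb in K562, and RPS21 followed with 0.432%. With the leading RP gene of each library left out, which for LIN28B was RPL18, LIN28B still had 3.38% of its reads on RP mRNAs in K562, 2.25 points above the other RBPs (exact permutation, adjusted p = 0.01).

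**Figure D3:**
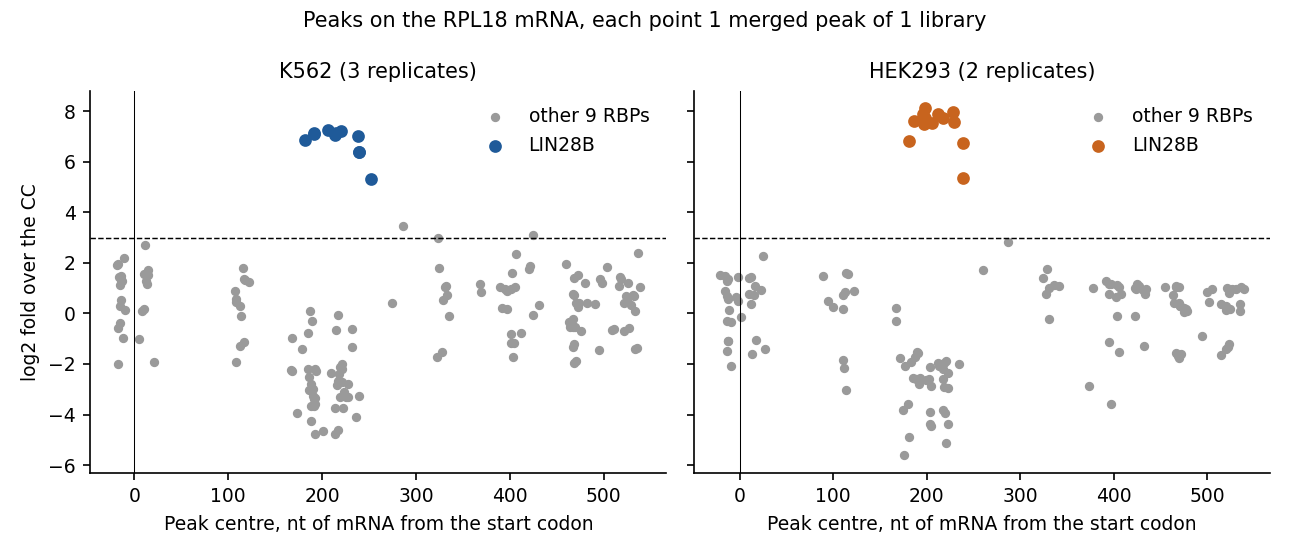
Log2 fold over the CC (y axis) of each merged peak on the RPL18 mRNA against its centre in nt of mRNA from the start codon (x axis), for LIN28B and the other 9 RBPs in K562 (3 replicates) and HEK293 (2 replicates); the dashed line is a fold of 8. LIN28B peaks lie 181 to 252 nt after the start codon, where those of the other RBPs are mostly below 0, and no peak of another RBP is above 3.48. The CC of the other RBPs includes the LIN28B reads, which lowers their folds at that site.

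RPS19, a small-subunit protein whose loss is known to cause Diamond-Blackfan anaemia, took 0.214%, 0.247% and 0.198% of LIN28B reads in K562 and 0.224% and 0.245% in HEK293. Its log2 fold was 5.79, 5.85 and 5.58 in K562 and 5.32 and 5.55 in HEK293, at 299 to 330 nt after the start codon. The highest library of another RBP had 0.0698% of its reads there in K562 and 0.116% in HEK293. The LIN28B values thus lay above all others in both lines.

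RPS12, of the small subunit, had a log2 fold of 5.96, 5.85 and 5.84 in K562 and 5.82 and 5.59 in HEK293, with centres 280 to 283 nt after the start codon in all 5 libraries. RPS21, of the small subunit too, had 6.83, 5.39 and 4.97 in K562 and 5.43 and 5.66 in HEK293, and RPS13 had a mean of 5.54 ± 0.309 (SD, n = 3) in K562 and 5.65 ± 0.193 (SD, n = 2) in HEK293. The values of the lines overlapped for RPS21 and RPS13 and did not for RPS12. RPL39L, a copy of RPL39 known from testis and tumours, had a log2 fold of 6.35, 7.38 and 4.33 in K562 and of 3.29 and 3.37 in HEK293, without overlap. RPL27A was called for LIN28B in K562 only (3.57 ± 0.129, SD, n = 3), and RPL6 (4.91) and RPL11 (3.20) in HEK293 only. RPL27A held 0.0373% ± 0.00874 (SD, n = 3) of LIN28B reads in K562 and 0.0329% ± 0.00424 (SD, n = 2) in HEK293, so its share of reads was close in the lines. RPL11, which is known to bind MDM2, held 0.0893% ± 0.0226 (SD, n = 3) of LIN28B reads in K562 and 0.0784% ± 0.0283 (SD, n = 2) in HEK293, so its share of reads overlapped between the lines.

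Most LIN28B reads on RP mRNAs lay in the CDS, with 93.7%, 91.2% and 89.9% in K562 against 73.5%, 71.4% and 70.2% on all other mRNAs. The median LIN28B position was 215, 214 and 238 nt after the start codon on RP mRNAs, a mean of 222 ± 13.6 (SD, n = 3), and 998 ± 13.5 on other mRNAs. RP mRNAs are much shorter, so a distance in nt is bounded by their length.

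DDX3 and EIF3G had the largest 5′ UTR shares on RP mRNAs, as on other mRNAs. DDX3 had 20.3%, 18.8% and 25.2% of its RP exonic reads in the 5′ UTR in K562, a mean of 21.4% ± 3.34 (SD, n = 3) against 9.24% for the other RBPs (exact permutation p = 0.002, adjusted p = 0.02). EIF3G had 15.2%, 15.1% and 25.8%, a mean of 18.7% ± 6.14 (exact permutation p = 0.008, adjusted p = 0.04, or 0.0677 without the replicate as a block). Neither the DDX3 nor the EIF3G share passed the threshold when peaks were counted in place of reads, as given below. In HEK293 they were lower, at 13.7% and 11.8% for DDX3 and 13.4% and 10.2% for EIF3G, with no overlap between the lines. The test between the lines for DDX3 (21.4% against 12.7%) gave its smallest possible value (exact permutation p = 0.1).

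On other mRNAs EIF3G had 45.6%, 45.1% and 54.8% of its reads in the 5′ UTR, and RP minus other mRNAs was −30.4, −30.0 and −29 points. The mean difference was −29.8 ± 0.704 points (SD, n = 3), and it was 31.3 points below that of the other 9 RBPs (exact permutation p = 0.001, adjusted p = 0.01). In HEK293 the differences were −32.0 and −27.8 points. DDX3 was lower on RP mRNAs as well, with differences of −12.7, −12 and −8.15 points (exact permutation p = 0.091, adjusted p = 0.37). The 5′ UTR share was lower on RP mRNAs in all 10 libraries of DDX3 and EIF3G, and higher in 33 of the 40 of the other 8 RBPs. A peak that touches the CDS is counted as CDS, and RP 5′ UTRs are short (median 42 nt, against 131 nt over all genes). The 5′ UTR share of DDX3 and EIF3G thus depends on this order as well as on where their reads lie.

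**Figure D4:**
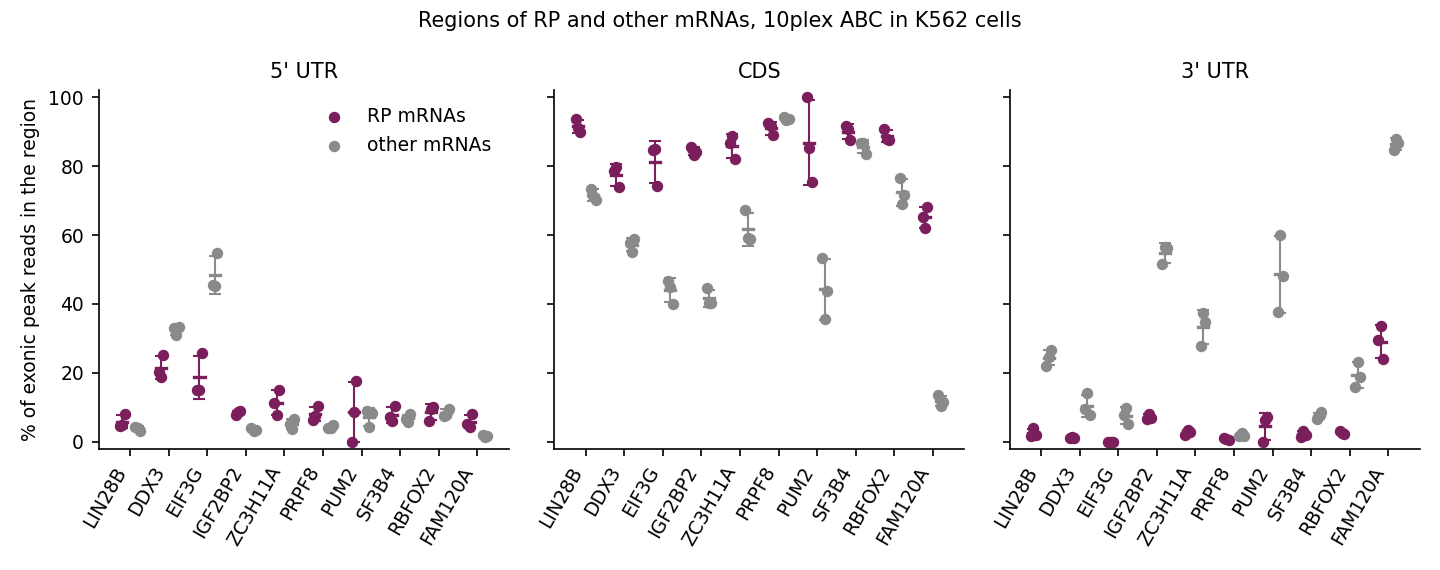
Percent of exonic peak reads in the 5′ UTR, CDS and 3′ UTR (y axis) on RP mRNAs and on other mRNAs for the 10 RBPs (x axis) in K562, with a point per replicate and bars for the mean and SD. EIF3G is at a mean of 18.7% on RP 5′ UTRs and at 45.1% or more on others, and FAM120A at a mean of 29% on RP 3′ UTRs and at 84.7% or more on others.

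Around the start codon the order of RP and other mRNAs turned. The share of DDX3 reads within 50 nt of the start codon was 45.5%, 45.2% and 48.4% on RP mRNAs and 20.2%, 21.6% and 24.1% on other mRNAs, and for EIF3G it was 38.8%, 56.7% and 53.8% against 17.2%, 19.2% and 20.5%. This share was higher on RP mRNAs in all 50 libraries of 10plex ABC. A window of fixed length is a larger part of a short mRNA, whatever the RBP, so this direction depends on length as well as on placement. A median 5′ UTR of 42 nt places the cap, the TOP tract and the start codon inside that window on most RP mRNAs. The first 50 nt of the mRNA held 20.3%, 26% and 28.5% of DDX3 reads on RP mRNAs and 7.75%, 8.55% and 10.2% on others, with the same limit. The part of length in either share was not tested.

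DDX3 had 1 RP gene called in every K562 replicate, RPL8, with a log2 fold of 3.28, 3.97 and 3.15 at a site in the 5′ UTR centred 12 to 13 nt from the annotated mRNA start. In HEK293 it was called in 1 of 2 replicates (3.08). RPL8 took 0.136%, 0.163% and 0.178% of DDX3 reads in K562, and LIN28B had a mean of 0.20% on the same mRNA. RPLP2 and RPLP1, the acidic proteins of the ribosomal stalk, followed with 0.147% ± 0.0297 and 0.120% ± 0.0178 (SD, n = 3). Per kb of mRNA RPLP2 led with 0.319%. The 3 RP mRNAs with the most EIF3G reads were RPLP2 (0.135% ± 0.00604), RPL38 (0.125% ± 0.0418) and RPL18 (0.0953% ± 0.0348), and RPL38 was called in 1 of 3 replicates (log2 fold 3.21). RPL39L was called for DDX3 in both HEK293 replicates (4.31 ± 1.26, SD, n = 2) and in no K562 replicate. The RP mRNA with the highest mean share was RPL8 for ZC3H11A (0.0949% ± 0.0423) and RPL18 for PUM2 (0.160% ± 0.0697). RPL18 led in PUM2 replicate 1 only, with 39.7% of its RP reads, while RPL35A and RPL8 led in replicates 2 and 3. The RPL18 shares of EIF3G and PUM2 were summed as for LIN28B, so the limit given there for the exon junction holds for them too.

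FAM120A was the only RBP with a large 3′ UTR share on RP mRNAs. It had 29.5%, 33.5% and 24.0% of its RP exonic reads there in K562, a mean of 29% ± 4.80 (SD, n = 3), and no library of another RBP exceeded 8.13% (exact permutation p = 0.001, adjusted p = 0.01). Its CDS share was 65.3%, 62.1% and 68.1%, below the 73.8% of the lowest other library (exact permutation, adjusted p = 0.01). In HEK293 the 3′ UTR share was 25.7% and 29.6% and the CDS share 68.6% and 67.2%, so both lines overlapped in the 3′ UTR.

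On other mRNAs FAM120A had 84.7%, 88.1% and 86.7% of its reads in the 3′ UTR, and RP minus other mRNAs was −55.1, −54.5 and −62.8 points, a mean of −57.5 points (exact permutation, adjusted p = 0.01). Its CDS share was 51.8, 51.6 and 56.5 points higher, a mean of 53.3 (exact permutation p = 0.002, adjusted p = 0.01). IGF2BP2 fell in the same direction, with 6.67%, 8.13% and 6.91% in RP 3′ UTRs and 51.6%, 56.7% and 56.3% in others (exact permutation p = 0.02, adjusted p = 0.0733). The 3′ UTR share was lower on RP mRNAs in all 50 libraries, and the CDS share higher in 46, the 4 exceptions being PRPF8. By summed annotated length the 3′ UTR was 58.6% of RP mRNAs and 47.4% of other mRNAs, and the CDS 36.9% and 47.2%. Members with long annotated 3′ UTRs, up to 7242 nt in RPL37, weigh heavily in these sums. The median member has 166 nt of 3′ UTR beside 457.5 nt of CDS, against 1018 and 1272 nt over all genes. The part of length in the region shares was not tested.

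The RP genes called for FAM120A were members with a long 3′ UTR. RPL7L1, a copy of RPL7 known from ribosome assembly, had a log2 fold of 5.46, 4.55 and 4.50 in K562 and was called in 1 of 2 HEK293 replicates (3.08). RPL27A had 5.60, 4.17 and 4.04 and in HEK293 3.84 and 3.40. RPL14 had 4.62, 4.10 and 4.04 and in HEK293 4.39 and 3.05. RPL22 had 3.91, 3.81 and 3.64 in K562 and 4.90 and 4.94 in HEK293, with no overlap. All 4 sites were in 3′ UTRs, of 3436, 4066, 6355 and 1652 nt in the order given, and only 10 members have a longer 3′ UTR than RPL22. RPS23 was called in HEK293 only (4.21 ± 0.175, SD, n = 2). Enriched FAM120A peaks on RP exons were centred in a 3′ UTR in 8 of 8, 12 of 13 and 14 of 14 cases in K562, and in 22 of 22 and 21 of 21 in HEK293. On other mRNAs it was 98.6% to 99.4% over the same libraries. The only RP gene called for IGF2BP2 in all K562 replicates was RPS27L, a copy of RPS27 known as a p53 target, with 5.42, 3.53 and 4.98 at the end of the CDS and in a 3′ UTR of 5783 nt. The RP mRNAs with the most IGF2BP2 reads were RPL4 (0.0873% ± 0.0257), RPL11 and RPL18.

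For the splicing factors, most of the enriched peaks that touch RP exons were centred at splice sites. The 3 sites shown lie at the exon boundaries of RPL37 for PRPF8 (chr5:40834161-40834190, minus strand, end of a coding exon and start of an intron) and of RPL12 (chr9:127450795-127450824, minus strand) and RPL34 (chr4:108622085-108622114, plus strand) for SF3B4 (end of an intron and start of a coding exon). They were peaks at the same boundary in all 3 K562 replicates. Capitals mark the GT and AG at the ends of the intron, and the RPL12 and RPL34 introns end in a run of pyrimidines before the AG.
RPL37 5′ splice site: gcagattcagGTacagtttgtatgttcgat
RPL12 3′ splice site: taactcttcttttcccccAGtatacctgag
RPL34 3′ splice site: ctgactgtttcactttctAGgtcccgaacc

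At the RPL37 site PRPF8 had a log2 fold of 4.99, 5.03 and 5.07 in K562 and 4.55 and 3.59 in HEK293, without overlap. The strongest PRPF8 sites of RPL9 (5.41, 5.03 and 5.77), RPL6 (4.73, 4.60 and 4.18), RPL3 (4.63, 4.65 and 4.18) and RPL7 (3.63, 5.23 and 4.57) were at different introns of the gene in different replicates. RPL13A was called for PRPF8 in HEK293 only (3.7 ± 0.0228, SD, n = 2). Of the PRPF8 peaks enriched on RP exons, 45 of 45, 57 of 58 and 62 of 64 were centred within 100 nt inside the intron from a 5′ splice site in K562 (100%, 98.3% and 96.9%), against 80.6%, 80.6% and 86.1% of those on other mRNAs. In HEK293 it was 60 of 65 and 49 of 55 (92.3% and 89.1%), against 72.6% and 64.4%. The RP share was thus higher in all 5 replicates.

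Those peaks count as exonic because they overlap an exon, and by the centre of the peak none of 48 RP genes was called for PRPF8 in K562 (4.46% of all genes). The CDS share of PRPF8 reads differed by −1.64, −1.81 and −4.62 points between RP and other mRNAs in K562, where the other RBPs were all higher on RP mRNAs (mean −2.69 points, or −1.72 without replicate 3, exact permutation, adjusted p = 0.01 with all 3), and by −0.881 and 0.394 points in HEK293.

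At the RPL12 site SF3B4 had a log2 fold of 4.97, 4.29 and 4.80 in K562 and was called in 1 of 2 HEK293 replicates (4.62). The others called were RPS10 (5.75, 4.06 and 4.02), RPL10 (3.85, 4.53 and 3.22), RPL15 (4.50, 3.53 and 3.53, in no HEK293 replicate) and RPL34 (3.11, 3.49 and 3.91). Of the SF3B4 peaks enriched on RP exons, 13 of 15, 17 of 18 and 9 of 10 were centred within 100 nt of a 3′ splice site in K562 (86.7%, 94.4% and 90.0%), against 76.7%, 82.2% and 78.9% on other mRNAs.

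RBFOX2 had 192, 249 and 232 peaks on RP exons in K562, of which 1 was enriched, and it had enriched peaks in RP introns. The 2 genes with such a peak in every K562 replicate were RPL31, of the large subunit, and RPS3A, of the small. The sites of replicate 2 are shown, with GCATG, the DNA letters of the RBFOX2 motif, in capitals, at chr2:101004369-101004398 (within 100 nt of a 5′ splice site) and chr4:151100286-151100315 (within 500 nt of a splice site), both on the plus strand.
RPL31 intron: aatttggttaatGCATGtggaagtataaaa
RPS3A intron: tcaaagtctgatGCATGcagtgaaacgtac

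The log2 fold of RBFOX2 was 4.50, 4.54 and 4.20 on RPL31 in K562 and 3.77 and 3.13 in HEK293, at different sites among replicates. On RPS3A it was 4.40, 4.69 and 3.88, at 1 site in all K562 replicates, and 3.59 and 3.74 in HEK293, where the peak of replicate 1 lay elsewhere (chr4:151099976-151099997) than that of replicate 2 (chr4:151100203-151100294). The sites differ, so the lines are not compared. GCATG was in the 100 nt around 6 of 7, 6 of 7 and 6 of 12 enriched RBFOX2 peaks in RP introns in K562, and around 8 of 10 and 5 of 5 in HEK293, searched on the strand of the gene. Peaks there that were not enriched held it in at most 28.2% of cases, and enriched peaks in other introns in 55.5% to 64.7%. With 5 to 12 peaks on 4 to 10 genes a library, these counts are a description.

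LIN28B had an intronic site outside small RNAs on RPL7A, with a log2 fold of 6.18, 6.16 and 5.72 in K562, which lay 5 nt from the small nucleolar RNA gene SNORD24. SF3B4 had them on RPS25 (5.92, 5.12 and 7.02), RPL6 (5.92, 5.21 and 6.60) and RPS3A (5.5, 4.35 and 6.34), each from 6 to 15 reads. On RPS25 the site of replicate 2 (chr11:119017548-119017595) was another than that of replicates 1 and 3.

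Small RNAs in the introns held a large part of the peak reads on RP genes. The 84 genes hold 64 annotated small RNA genes in 33 of them, and peaks on these took between 37.6% (LIN28B) and 91.0% (PUM2) of all peak reads of RP genes in K562, as means over 3 replicates. In HEK293 the means ran from 24.6% (PRPF8) to 71.0% (SF3B4), and every HEK293 library lay below every K562 library of the same RBP. The leading ones were SNORD34 and SNORD32A in RPL13A, SNORD100 in RPS12, SNORD24 in RPL7A and SNORD68 in RPL13. Of the RP exonic peaks, 0% to 1.83% overlapped a small RNA, by library.

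**Figure D5:**
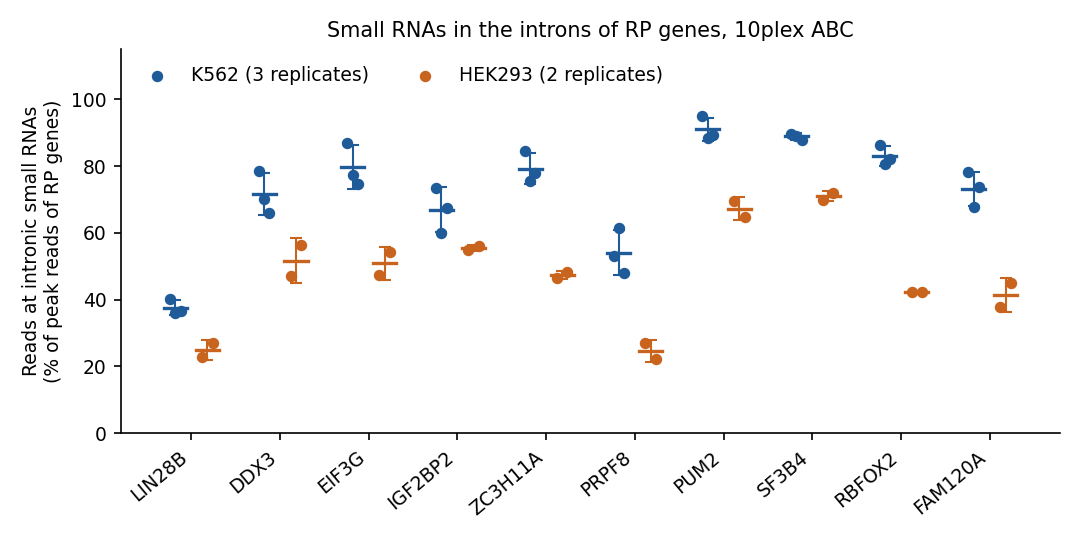
Peak reads at small RNAs inside introns of RP genes (y axis, % of all peak reads on RP genes) by RBP (x axis), with a point per replicate and bars for the mean and SD. LIN28B in K562 (37.6%) lies below the other 9 RBPs there, and each RBP is lower in HEK293 than in K562.

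The fold over the CC was lower on RP mRNAs than elsewhere. The median log2 fold of RP exonic peaks was below that of all exonic peaks in each of the 50 libraries of 10plex ABC. For LIN28B in K562 it was 1.95, 1.99 and 1.57 against 2.86, 2.7 and 2.77, and for FAM120A −1.11, −1.50 and −1.27 against 2.21, 1.99 and 2.0. The reads per gene also went together between RBPs: over the 84 genes Spearman's rho between pairs of RBPs was 0.495 to 0.898 in K562 (median 0.718, 45 pairs), where all pairs share the pool and the abundance and length of each mRNA.

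Against the external background, which the paper's methods give as RNA-seq, the lines differed. The median log2 fold of RP exonic peaks was 4.18 to 9.65 in K562, where the median such peak had 1 to 1.5 background reads, and −2.99 to −0.685 in HEK293, where it had 160 to 6619. Over all exonic peaks of protein-coding genes the medians were 3.27 to 9.65 in K562 and 0.355 to 3.26 in HEK293. In K562 a fold over this background thus rests on about 1 read.

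Singleplex RBFOX2 in HEK293 had 0.258% and 0.490% of its peak reads on RP exons, and 10plex RBFOX2 had 0.576% and 0.707%. They did not overlap, but 2 against 2 libraries cannot give an exact permutation p below 0.33. Reads of 10plex RBFOX2 and SF3B4 in HEK293 were estimated at 0.933 to 1.41 times the known ones. With the nearest values at 0.490% and 0.576%, the lack of overlap is uncertain. The median log2 fold over the external background on RP exons was −3.96 and −3.39 in the singleplex libraries, against −0.221 and 0.0421 over all their exonic peaks.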

How the data were processed

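Per the labels and the methods, the authors trimmed reads with cutadapt 2.8, set aside those of repetitive elements, aligned the rest uniquely to GRCh38 with STAR 2.7.6, removed PCR duplicates and ran CLIPper on each library. The deposited peaks carry a CLIPper p-value and a display score, neither of which enters a test here, and the merged peaks a −log10 P and a log2 fold over an external background. Over the CC, the deposited values of K562 replicate 3 are again a −log10 P and a log2 fold. Those of the other 10plex pools are a chi-squared statistic and its P, from which the authors left out peaks in repeats.

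Reads per peak were recovered from the deposited folds as ratios of whole numbers. This gave a solution for 95.5% to 100% of the merged peaks of a library, some with the whole-number multiple still open. CC reads were solved from the statistic. Among peaks with few reads they came out as whole numbers in 59.9% to 94.8% of cases by library. In HEK293, 86.7% to 94.5% of a library's deposited CC list could be joined to merged peaks with reads. The statistic has no sign, and the direction rule, tried on K562 replicate 3, was right for 94.3% to 99.1% of peaks and found 100% of the enriched ones. It could not be tried on the other pools, HEK293 among them, which have no deposited fold over the CC. The whole-number multiple was open for 0.140% to 1.39% of peaks in K562 libraries and 11.2% to 57.8% in HEK293. These peaks held 7.14% to 35.7% of the reads in K562 libraries and 19.3% to 55.5% in HEK293. In HEK293, reads of RBFOX2 and SF3B4 were estimated at 0.933 to 1.41 times the known ones. Those of the other 8 RBPs were estimated at 0.952 to 1.04 times.

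Peaks were placed on GENCODE 44 exons (the authors used another release) in the order CDS, 5′ UTR, 3′ UTR, splice site within 100 nt, and introns, and runs of touching peaks were counted once by their highest reads. An RBP was compared with the other 9 by exact two-sided permutations of RBP names within replicates, so that the pool is the block, with Benjamini-Hochberg adjustment over the 10 RBPs within each measure and a threshold of 0.05. Errors are SDs over replicates and cover these libraries only. Depth limits which peaks could be called. The code was tested on simulated data. Python 3.11.15, pandas 2.3.3, SciPy 1.17.1, bedtools 2.31.1 and pysam 0.24.0 were used.

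The genes, comparison lists and tests were chosen with earlier results of these data known. Genes were named by rule: for each RBP up to 5 RP genes called in all K562 replicates by mean log2 fold, the 3 with the most reads, up to 3 called in every replicate of only 1 line, up to 3 with an intronic site, and members with no exonic peak. Some genes that met these rules are not reported here.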

Additional observations from a re-analysis of the deposited data

How the results depend on the processing

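Leaving out a K562 replicate leaves 2, with which no adjusted p can be below 0.1, so each call of a share was lost while the direction held: LIN28B kept 1.44% to 1.55% of enriched peaks and 4.46% to 4.74% of reads on RP mRNAs, the 5′ UTR share was 19.6% to 22.7% for DDX3 and 15.1% to 20.5% for EIF3G, and FAM120A had 63.7% to 66.7% in the CDS and 26.7% to 31.5% in the 3′ UTR. RP minus other mRNAs was −30.2 to −29.5 points for EIF3G in the 5′ UTR, 51.7 to 54.2 for FAM120A and −3.21 to −1.72 for PRPF8 in the CDS, and −58.9 to −54.8 for FAM120A in the 3′ UTR. HEK293 in place of K562 has the same limit and gave 1.79% and 4.98% for LIN28B, 12.7% for DDX3, 11.8% for EIF3G, 67.9% and 27.7% for FAM120A, and differences of −29.9, 53.1, −0.244 and −55.9 points. Without the replicate block the EIF3G 5′ UTR share, 18.7%, had an adjusted p = 0.0677 by exact permutation, and the other 79 tests kept their side of the threshold. Counting peaks in place of reads gave 15.2% for DDX3 and 15.9% for EIF3G in the 5′ UTR (adjusted p = 0.26 and 0.24) and 38.9 points for FAM120A in the CDS (adjusted p = 0.138), and regions taken at the peak's centre gave FAM120A 58.8% in the CDS (adjusted p = 0.06), all by exact permutation. Over the external background the difference from the other RBPs in the share of enriched peaks on RP mRNAs turned, to 3.28% for EIF3G and 0.851% for PRPF8 (exact permutation, adjusted p = 0.035 for both). In K562 the median RP exonic peak had 1 to 1.5 reads in that background, so calls over it, here and in the next sentence, rest on about 1 background read. RP genes called for LIN28B became 15 of 57 with P below 1e-05 and a fold above 16 (17.1% of all genes), 38 with any fold above 1 (49.0%) and 52 of 58 over the external background (54.0%), and for PRPF8 4 of 79 (2.59%), 52 (52.1%) and 77 (80.6%), so that the RP share lay above that of all genes, and 0 of 48 by the peak's centre (4.46%), a setting chosen after seeing the data together with a denominator of protein-coding peaks. The cause of these changes was not tested, other than the smaller number of replicates. Among the other values under an alternative, 592 kept their direction and side of the threshold, 6 passed it only under the alternative and 18 moved.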

Other observations

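SLBP, run alone in K562 cells and outside the comparisons above, had 0.452% and 0.178% of its peak reads on RP exons, from 45 and 7 merged peaks on 26 and 4 RP genes. Small RNAs in their introns held 81.7% and 89.7% of its peak reads on RP genes. In singleplex RBFOX2 these small RNAs held 19.4% and 21.9%, and the 3′ UTR held 10.3% and 4.67% of RP exonic reads.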
